A study of Mus musculus with 12 samples.

Results

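Whole adult mouse testes in which most tubules stood at stages XII to I of the seminiferous cycle were compared with testes at stage VII, on 4 microarrays out of 12 in the study, 2 per group. The members are the arrays whose labels name stages XII-I, set against those whose labels name stage VII; the other 8 arrays belong to groups II-IV, IV-VI, VIII-IX and IX-XI and served to estimate the spread. All 12 came from male mice of a mixed 129/C57BL6 background, and every group had received the same synchronizing treatment. Pups were given WIN 18,446, a compound that blocks retinoic acid synthesis, at 100 ug per g daily for 7 days, from 2 to 8 days after birth. A dose of 200 ug of retinoic acid followed at 9 days after birth, and the testes were collected after 43 to 49 days of recovery. No untreated testis is among the samples analysed here, and the labels leave unstated if both samples of a group are different animals; the p-values then reflect only how much these samples vary, which may be technical variation. Levels are log2 of the deposited intensity, a difference is XII-I minus VII on that log2 scale, and a gene was called where its adjusted p in the limma fit of 12 arrays was under 0.05. Levels of different genes cannot be set against each other, since each probe set has its own brightness.

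Spermatogenesis runs as a repeating cycle of cell associations, and the stages number the points of that cycle. At stage XII, spermatocytes pass through both meiotic divisions, and at stage I the newest round spermatids have just formed beside elongating spermatids. At stage VII, round spermatids in mid-development are spreading the acrosome, the enzyme-filled cap of the sperm head, the oldest spermatids approach release, and Sertoli cells are known to respond strongly to androgen. The comparison therefore sets opposite points of the cycle side by side.

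In XII-I testes, 26 of 56 genes of the meiotic division machinery were higher, 21 of 59 genes of the acrosome and round spermatid surface were lower and 11 higher, and 9 of 25 androgen regulated Sertoli genes were lower. Of 19946 genes, 3207 were called (16.1%), 2182 of them higher (10.9%) and 1025 lower (5.14%). At least 2-fold apart were 743 genes (3.73%), with 364 higher (1.82%) and 379 lower (1.9%). A 4-fold difference or more was reached by 16 genes higher in XII-I and 71 lower. The median difference over all genes was 0.032, and in 10824 genes both arrays of one group lay beyond both of the other (54.3%, with 32.4% higher and 21.9% lower in XII-I). The other opposite points of the cycle gave 2619 called genes for II-IV against VIII-IX (13.1%) and 1433 for IV-VI against IX-XI (7.18%), with no test of one number against another.

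How many genes passed the threshold depended on which arrays were in the fit, and such counts do not show the size of the differences. The median difference of the meiotic division genes was 0.548, with 0.506 without VII sample 2 and 0.302 without XII-I sample 1. For the acrosome genes it was -0.348, with -0.546 and -0.479 in the same order. For the androgen regulated Sertoli genes it was -0.313, with -0.135 and -0.366. Without VII sample 2, or without XII-I sample 1, no gene passed in limma at 0.05: the smallest adjusted p was 0.079 and 0.063, while 4988 and 4912 genes had an unadjusted p under 0.05, against 6137 with all arrays. At an adjusted p under 0.1, a threshold added after the data were seen, 2416 genes passed without VII sample 2 and 2030 of them were among the 3207; without XII-I sample 1 there were 2465, of which 1895 were among the 3207. No list below has a call at 0.05 without either array, so the main lists are also given at 0.1. Without VII sample 1, 1960 genes passed at 0.05. Below, list counts from fits without 1 array stand without the share of all genes in each direction at that setting. They cannot show an excess over all genes. Arrays of a group correlated at 0.988 over genes in XII-I and 0.99 in VII, against 0.965 to 0.97 between the groups. The median absolute difference was 0.151 between the XII-I arrays and 0.111 between the VII arrays, against 0.165 between the group means. XII-I sample 2 lay nearest to group II-IV (median absolute difference 0.095) and XII-I sample 1 nearest to VIII-IX (0.14), whereas both VII samples lay nearest to IV-VI (0.081 and 0.121).

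Symbols of predicted genes and RIKEN clones (Rik), chemosensory receptors and small RNAs were passed over in choosing the genes with the largest differences. Only called genes whose groups do not overlap were eligible, so the lack of overlap in the chosen genes was set by the choice. Of the 15 with the largest difference higher in XII-I, Dnaic2, an intermediate chain of the outer dynein arm that drives the beat of cilia and flagella, stood first. Its levels were 11.68 and 11.60 in XII-I and 8.70 and 8.83 in VII, a difference of 2.87 (SE 0.45, 7.33-fold, adjusted p = 0.014 in limma). The groups were far apart and the samples of each close together. Nutm2 had 8.91 and 8.97 in XII-I against 6.22 and 6.31 in VII, a difference of 2.67 (SE 0.31). Rhcg, an ammonium transporter, had 11.73 and 11.44 in XII-I against 9.05 and 8.90 in VII, a difference of 2.61 (SE 0.43). Slc2a8, a glucose transporter of spermatids and other cells, had 10.91 and 10.83 in XII-I against 8.82 and 8.88 in VII, a difference of 2.02 (SE 0.34). Ccnf, an F-box protein that marks cell cycle proteins for destruction, had 10.45 and 10.46 in XII-I against 8.55 and 8.51 in VII, with the arrays of each group nearly level. Efcab8, Tuft1, Defb33, Spdye4a, Zbtb42, Rfx8, Emx2, Mapk11, Rnase10 and Cntfr complete the set, with differences between 1.91 for Cntfr and 2.49 for Efcab8. The lowest XII-I array exceeded the highest VII array by 1.47 to 2.77 in all 15, and 14 of them also passed without VII sample 1. Mapk11, Rnase10 and Zbtb42 differed most between the XII-I samples, with sample 1 higher in each, as with 9.83 and 9.04 for Mapk11. The Spdye4a probe set may read related copies.

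The 15 largest in the other direction, by the same choice, were led by Asb15, a member of a family of substrate adaptors for ubiquitin ligases. It had 7.21 and 7.80 in XII-I and 11.03 and 10.84 in VII, a difference of -3.43 (SE 0.71, 10.8-fold lower, adjusted p = 0.017). Lrrd1 had 8.79 and 7.85 in XII-I against 11.67 and 11.55 in VII, a difference of -3.29 (SE 0.67). Hsfy2, a testis member of the heat shock factor family, had 8.42 and 9.35 in XII-I against 12.18 and 12.11 in VII, a difference of -3.25 (SE 0.51). The VII samples of these genes were close together, whereas the XII-I samples lay further apart, sample 1 being higher for Lrrd1 and lower for Asb15 and Hsfy2. Adam29, a testis membrane protein of the ADAM family, had 6.97 and 7.03 in XII-I against 10.37 and 9.98 in VII, a difference of -3.18 (SE 0.57). Klf17, a zinc finger transcription factor, had 6.73 and 6.70 in XII-I against 9.75 and 9.35 in VII, a difference of -2.83 (SE 0.60). Serpina3a, Cd109, Spata31d1d, Acot10, Stk-ps2, Dyrk4, Cldn34c4, Mroh5, Heatr9 and Samt3 complete the set, with differences from -3.24 for Serpina3a to -2.72 for Samt3. The highest XII-I array lay 2.2 to 3.04 under the lowest VII array in all 15. With VII sample 1 left out, 5 of the 15 passed, and without XII-I sample 2, 11 did. Probe sets of Samt3, Cldn34c4, Spata31d1d and Stk-ps2 may read related copies. The RIKEN clones 4921511C20Rik and 4930513O06Rik, at -3.31 and -3.09, were passed over here. The plot of the 30 genes shows the 4 arrays of each.

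**Figure D1:**
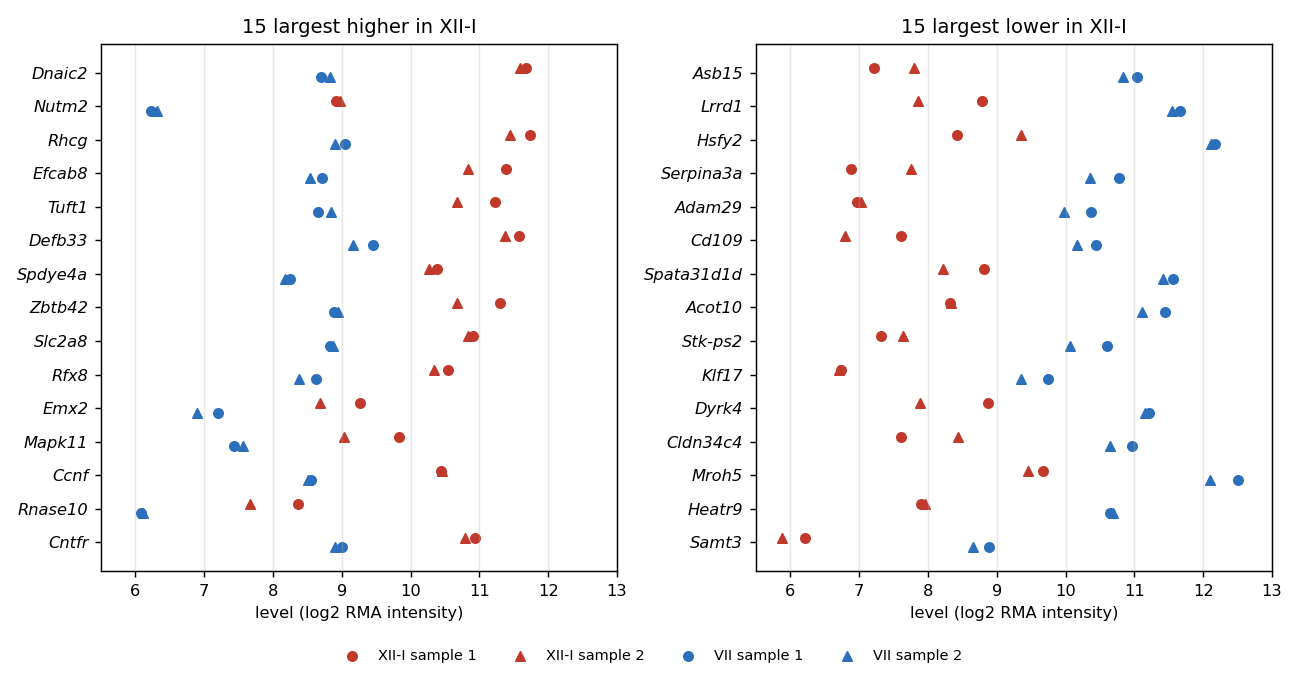
Level (log2 RMA intensity) on each of the 4 arrays for the 15 genes with the largest difference higher in XII-I (left) and the 15 lower (right), passing over predicted genes, RIKEN clones, chemosensory receptors and small RNAs. XII-I arrays are red and VII arrays blue, with circles for sample 1 and triangles for sample 2. Only genes whose groups do not overlap were eligible. The gap between the groups is 1.47 to 2.77 on the left and 2.2 to 3.04 on the right.

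Meiotic division and M phase genes formed the list with the largest share higher. Of 56 measured members, 26 were higher and 2 lower (46.4% and 3.57%, against 10.9% and 5.14% of all genes), and the median difference was 0.548 against 0.032 over all genes. Summed intensity of the list was 120069 and 107237 in XII-I and 80243 and 74513 in VII. Such a sum, here and for the lists below, is weighted toward the brightest probe sets. Aurka, the kinase that builds spindle poles, had 12.15 and 12.01 in XII-I against 10.26 and 10.24 in VII, a difference of 1.83 (SE 0.31, adjusted p = 0.014). Aurkb, the kinase of the chromosomal passenger complex, had 11.07 and 10.21 in XII-I against 8.98 and 8.93 in VII, a difference of 1.69 (SE 0.35). Incenp, the scaffold of the same complex, had 10.60 and 10.40 in XII-I against 9.15 and 9.09 in VII, a difference of 1.38 (SE 0.22). For Aurkb, XII-I sample 1 stood well above sample 2, yet both exceeded the VII samples. Ccna1, the A-type cyclin of male germ cells, had 12.77 and 12.72 in XII-I against 11.25 and 11.13 in VII, a difference of 1.56 (SE 0.27). Separase, which cuts cohesin at anaphase and is encoded by Espl1, had 11.34 and 11.06 in XII-I against 9.98 and 9.72 in VII, a difference of 1.36 (SE 0.22). Cdk1, the M phase kinase itself, had 12.02 and 11.49 in XII-I against 10.81 and 10.76 in VII, a difference of 0.97 (SE 0.21). Both members that were lower act on the balance of Cdk1 activity and were named after their values were seen. Mastl, a kinase that restrains the phosphatase opposing Cdk1, had 8.66 and 7.66 in XII-I against 9.70 and 9.25 in VII, a difference of -1.31 (SE 0.38, adjusted p = 0.048). Pkmyt1, a kinase that inhibits Cdk1, had 10.22 and 10.20 in XII-I against 10.75 and 10.54 in VII, a difference of -0.44 (SE 0.13, adjusted p = 0.048). On leaving out VII sample 1 the counts were 20 higher and 0 lower. At 0.1, 21 were higher and 1 lower without VII sample 2, and 20 higher and 2 lower without XII-I sample 1.

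The machinery that attaches chromosomes to the spindle and times anaphase followed in smaller numbers. Of 41 kinetochore and spindle checkpoint genes, 9 were higher and 1 was lower (22.0% and 2.44%, against 10.9% and 5.14% of all genes). The median difference was 0.189. Cenpe, the kinetochore motor that carries chromosomes to the spindle equator, had 10.91 and 11.03 in XII-I against 9.60 and 9.48 in VII, a difference of 1.43 (SE 0.24, adjusted p = 0.014). Ndc80, which binds the microtubule end at the kinetochore, had 10.14 and 9.62 in XII-I against 8.74 and 8.82 in VII, a difference of 1.10 (SE 0.20). Cenpl and Cenpf differed by 1.25 and 1.20. In these 4 genes every XII-I array stood above both VII arrays. Ska2, of a complex that tracks microtubule ends, was the member lower, by -0.43. At 0.1, 8 were higher and 0 lower without VII sample 2, and the same counts were found without XII-I sample 1. Of 21 genes of the anaphase-promoting complex and its partners, 7 were higher and 1 lower (33.3% and 4.76%), all less than 2-fold. Its activators Cdc20 and Fzr1 differed by 0.65 (SE 0.13) and 0.57 (SE 0.13). Cdc20 had 11.57 and 11.32 in XII-I against 10.86 and 10.73 in VII, and Fzr1 had 11.91 and 12.03 in XII-I against 11.51 and 11.30 in VII. The subunit gene Cdc26 was higher by 0.48, and Anapc4, another subunit gene, lower, at -0.50. Without VII sample 1, 2 members were higher at 0.05 and 0 lower, and without XII-I sample 2, 4 higher and 0 lower. At 0.1, 4 were higher and 0 lower without VII sample 2, and likewise without XII-I sample 1.

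Promoters of M phase genes often hold the cell cycle genes homology region, CHR, the element through which the DREAM and MuvB complexes are known to act on genes of late cell cycle. The letters TTTGAA were sought on both strands in the RefSeq promoters of GRCm38.p6, first in the 250 bases before the start site and then with the 50 bases after it, counting a gene where any of its promoters matched. Upstream of the start site they were found in 15 of the 45 M phase members with a promoter (33.3%), in 8 of the 21 that were higher (38.1%), in 8 of 37 kinetochore genes (21.6%), in 1 of the 9 kinetochore genes that were higher (11.1%), in 7 of the 19 lower acrosomal genes (36.8%), in 0 of the 9 higher acrosomal genes and in 2440 of 15562 genes in all (15.7%). With the bases after the start site the shares were 51.1% of M phase members, 52.4% of those higher, 45.9% of kinetochore genes, 77.8% of the higher kinetochore genes, 42.1% of the lower acrosomal genes, 0 of the 9 higher acrosomal genes and 17.3% of all genes. The stretches of the 3 higher M phase members with the largest difference and a match are shown, since they let the match be seen in place, with the match in capitals (TTCAAA is TTTGAA read on the other strand), each on its gene's strand. Espl1 lies at chr15:102296241-102296292 on the plus strand, Cdk1 at chr10:69352949-69353008 and Kif22, a kinesin of chromosome arms, at chr7:127042601-127042660, both on the minus strand.
Espl1: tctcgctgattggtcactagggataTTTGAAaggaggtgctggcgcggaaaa
Cdk1: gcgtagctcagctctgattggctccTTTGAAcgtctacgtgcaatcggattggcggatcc
Kif22: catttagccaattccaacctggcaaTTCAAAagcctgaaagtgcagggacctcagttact
The matches begin at -27, -71 and -215 relative to the start site, and a match is a description of the letters. Kif22 differed by 0.89.

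Acrosomal and round spermatid surface genes split between the directions. Of 59 measured members, 11 were higher and 21 lower (18.6% and 35.6%, against 10.9% and 5.14% of all genes), 18 of the lower ones by at least 2-fold, and the median difference was -0.348. Cd46, a complement regulator found in the mouse on the acrosomal membrane, had 7.05 and 6.54 in XII-I against 9.69 and 9.26 in VII, a difference of -2.68 (SE 0.47, adjusted p = 0.014). Hyal5, a sperm hyaluronidase, had 9.63 and 10.70 in XII-I against 12.85 and 12.63 in VII, a difference of -2.57 (SE 0.44). Eqtn, equatorin of the acrosomal membrane, had 8.29 and 9.98 in XII-I against 11.69 and 11.55 in VII, a difference of -2.48 (SE 0.56, adjusted p = 0.021). Adam29, given above, is also a member. XII-I sample 2 was the higher of its pair for Hyal5 and Eqtn and the lower for Cd46. Izumo1, the sperm protein that binds the egg receptor, had 9.79 and 10.76 in XII-I against 12.13 and 11.89 in VII, a difference of -1.73 (SE 0.38). Members on the other side, named after their values were seen, included Adam1b, with 11.27 and 11.24 in XII-I against 9.82 and 9.67 in VII, a difference of 1.51 (SE 0.24), and Hyal6, another hyaluronidase gene, with 11.82 and 11.76 in XII-I against 10.68 and 10.57 in VII, a difference of 1.16 (SE 0.22). Hyal5 and Hyal6 thus moved in opposite directions. With VII sample 1 left out, 9 members were higher and 4 lower at 0.05. At 0.1, 6 were higher and 17 lower without VII sample 2, and 6 higher and 15 lower without XII-I sample 1.

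The cAMP response element, CRE, through which the spermatid activator CREM is known to act, was sought in the same windows by its full palindrome, TGACGTCA. Upstream of the start site it was present in 1 of the 19 lower acrosomal genes with a promoter (5.26%), in 3 of 37 kinetochore genes (8.11%), in 0 of 45 M phase genes and in 364 of 15562 genes in all (2.34%). With the bases after the start site the shares were 5.26%, 10.8%, 6.67% and 2.72%, in the same order. The match, in Izumo1, is shown in capitals on the plus strand at chr7:45621690-45621749 and begins at -96.
Izumo1: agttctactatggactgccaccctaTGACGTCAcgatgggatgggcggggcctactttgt

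Sperm tail genes also went both ways. Of 69 measured members, 20 were higher and 7 lower (29.0% and 10.1%, against 10.9% and 5.14% of all genes). The median difference was 0.092. Besides Dnaic2, Odf3b had 11.30 and 10.84 in XII-I against 9.41 and 9.13 in VII, a difference of 1.80 (SE 0.37, adjusted p = 0.018). Odf3, named for the outer dense fibres that stiffen the tail, had 11.47 and 10.47 in XII-I against 12.73 and 12.47 in VII, a difference of -1.62 (SE 0.43, adjusted p = 0.035). Catsper3, a pore subunit of the sperm calcium channel, had 8.76 and 10.30 in XII-I against 11.69 and 11.39 in VII, a difference of -2.01 (SE 0.54, adjusted p = 0.037). The pore subunit genes Catsper1 and Catsper4 were lower too, by -1.39 and -1.32, whereas Catsper2, the remaining pore subunit gene, was higher by 0.68; these 3 were named after their values were seen. Catsper2 had 12.04 and 11.99 in XII-I against 11.40 and 11.27 in VII. The XII-I samples were 1.54 apart for Catsper3 and 0.05 apart for Catsper2. On leaving out VII sample 1, 13 members were higher and 1 lower. At 0.1, 14 were higher and 4 lower without VII sample 2, and 16 higher and 8 lower without XII-I sample 1.

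Of 34 spermiogenesis transcription regulators, 5 were higher and 8 lower (14.7% and 23.5%, against 10.9% and 5.14% of all genes). Hsfy2, Klf17 and Rfx8 belong to this list, and Rfx8, of the RFX family, had 10.55 and 10.34 in XII-I against 8.62 and 8.38 in VII. Ccer1, a coiled-coil protein of spermatids, had 9.57 and 9.46 in XII-I against 10.91 and 10.71 in VII, a difference of -1.29 (SE 0.23, adjusted p = 0.015). Without VII sample 1 the counts were 2 higher and 3 lower. At 0.1, 4 were higher and 4 lower without VII sample 2, and 3 higher and 8 lower without XII-I sample 1.

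Nuclear condensation genes replace and compact the histones of spermatids. Of 26, 5 were higher and 3 lower (19.2% and 11.5%, against 10.9% and 5.14% of all genes). H1f6, the testis linker histone, had 10.46 and 9.54 in XII-I against 11.36 and 11.21 in VII, a difference of -1.28 (SE 0.29, adjusted p = 0.021). H2al2a, a histone variant of condensing spermatids with related copies its probes may read, had 11.57 and 11.52 in XII-I against 10.59 and 10.33 in VII, a difference of 1.08 (SE 0.24, adjusted p = 0.021). Kat5, a histone acetyltransferase, differed by 0.94. The transition protein gene Tnp1, named after its values were seen, had 12.91 and 12.61 in XII-I and 11.70 and 11.60 in VII without passing, at 1.11 (SE 0.53, adjusted p = 0.19). The protamine gene Prm1, chosen in the same way, did not pass at 0.36 (SE 0.19, adjusted p = 0.24). With VII sample 1 left out, 3 members were higher and 0 lower. At 0.1, 3 were higher and 3 lower without VII sample 2, and 3 higher and 5 lower without XII-I sample 1.

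Of 39 genes of the leptotene and zygotene chromosome axis and recombination, 3 were higher and 6 lower (7.69% and 15.4%, against 10.9% and 5.14% of all genes), with a median of -0.195. Meiob and Spata22 encode partners that bind single-stranded DNA during recombination. Meiob had 8.74 and 9.02 in XII-I against 7.85 and 7.30 in VII, a difference of 1.30 (SE 0.27, adjusted p = 0.018). Spata22 had 9.48 and 9.47 in XII-I against 10.81 and 10.37 in VII, a difference of -1.12 (SE 0.27, adjusted p = 0.024). The partners therefore differed in opposite directions, each without overlap between groups. Terb2, which anchors telomeres to the nuclear envelope, differed by -1.11, and Tex12, of the central element of the synaptonemal complex, was 1.99-fold lower. Dmc1, the meiotic recombinase, was higher by 0.91 (SE 0.21). On leaving out VII sample 1 the counts were 2 higher and 1 lower. At 0.1, 2 were higher and 6 lower without VII sample 2, and 1 higher and 6 lower without XII-I sample 1.

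Of 30 pachytene and diplotene genes, 2 were higher (6.67%) and 4 lower, against 10.9% and 5.14% of all genes. Acrv1, an acrosomal protein whose transcript starts in late spermatocytes and peaks in spermatids, had 10.49 and 11.84 in XII-I against 13.01 and 12.95 in VII, a difference of -1.82 (SE 0.39, adjusted p = 0.018). Ccnb1ip1, a crossover factor, differed by -1.21, Zfp37 by -1.07 and Piwil1 by -0.99. Of 23 piRNA pathway genes, 2 were higher and 4 lower (8.7% and 17.4%), with a median of -0.349. Piwil1, the PIWI protein of pachytene piRNAs, had 12.02 and 11.36 in XII-I against 12.70 and 12.66 in VII (adjusted p = 0.047). Tdrd1, a scaffold of germ granules, had 10.66 and 10.16 in XII-I against 11.71 and 11.63 in VII, a difference of -1.26 (SE 0.30). Tdrkh and Gtsf1 differed by -0.67 and -0.50. Without VII sample 1, 1 piRNA member was higher and 0 lower, and without XII-I sample 2 likewise. At 0.1, 0 were higher and 4 lower without VII sample 2, and 1 higher and 5 lower without XII-I sample 1.

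Of 55 DNA replication genes, 10 were higher and 6 lower (18.2% and 10.9%, against 10.9% and 5.14% of all genes). The median difference was -0.085. Rpa1, the large subunit of the single-strand binding protein RPA, had 11.75 and 11.43 in XII-I against 10.11 and 10.23 in VII, a difference of 1.41 (SE 0.29, adjusted p = 0.017). Ccne2, an E-type cyclin, had 8.97 and 8.61 in XII-I against 10.10 and 10.05 in VII, a difference of -1.28 (SE 0.29, adjusted p = 0.021). The clamp loader gene Rfc1 and the ribonucleotide reductase gene Rrm2 were higher by 1.18 and 1.02. With VII sample 1 left out, 4 were higher and 1 lower, and without XII-I sample 2, 10 higher and 1 lower. At 0.1, 6 were higher and 6 lower without VII sample 2, and 6 higher and 8 lower without XII-I sample 1.

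Among 26 genes of undifferentiated spermatogonia, 3 were higher and 0 lower (11.5%, near the 10.9% of all genes). The median difference of the list was -0.006, with 13 members positive and 13 negative. At 0.1 with 12 arrays, 3 were higher and 3 lower. The 3 called at 0.05 were Etv5, Bcl6b and Lhx1, transcription factor genes known in cultured mouse spermatogonia to respond to GDNF. Etv5 had 9.80 and 9.85 in XII-I against 8.29 and 8.91 in VII, a difference of 1.23 (SE 0.24, adjusted p = 0.016). Bcl6b had 8.66 and 8.61 in XII-I against 8.08 and 7.94 in VII, a difference of 0.62 (SE 0.12). Lhx1 had 7.71 and 7.64 in XII-I against 7.27 and 7.20 in VII, a difference of 0.44 (SE 0.12). Etv5 is also made by Sertoli cells. Of 17 genes of differentiating spermatogonia, 0 were higher and 3 lower (17.6%, against 5.14% of all genes). These were the homeobox genes Esx1 and Rhox13, by -1.18 and -0.45, and the D-type cyclin gene Ccnd1, by -0.47. On leaving out VII sample 1, 0 of these 3 passed.

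Retinoid genes were mixed, with 5 higher and 2 lower of 36 (13.9% and 5.56%, near the shares of all genes). Rxra, a retinoid X receptor, had 9.26 and 8.76 in XII-I against 10.30 and 10.36 in VII, a difference of -1.32 (SE 0.27, adjusted p = 0.017). Rxrg, another receptor of that family, had 8.15 and 7.42 in XII-I against 6.96 and 6.90 in VII, a difference of 0.85 (SE 0.25, adjusted p = 0.047). Stra6, which takes up retinol from its carrier protein, had 8.46 and 8.38 in XII-I against 9.12 and 9.82 in VII, a difference of -1.05 (SE 0.21). Dhrs4, a retinal reductase, was higher by 1.24. Stra8, the retinoic acid response gene of meiotic entry, chosen after its values were seen, had 7.53 and 7.19 in XII-I and 7.58 and 8.05 in VII, at -0.45 (SE 0.19, adjusted p = 0.14). Without VII sample 1, 1 retinoid member was higher and 5 lower; at 0.1, 1 was higher and 3 lower without VII sample 2, and 3 higher and 3 lower without XII-I sample 1.

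Of 32 protein turnover genes, 3 were higher and 3 lower (9.38% each, against 10.9% and 5.14% of all genes), with Asb4, a relative of Asb15, at 1.12 and the ubiquitin pathway genes Ube2a and Cul4b at -1.02 and -0.75. Of 31 energy isozyme genes, 3 were higher and 1 lower (9.68% and 3.23%, near the shares of all genes); the phosphofructokinase gene Pfkp differed by 1.19, Dld by 0.47 and the monocarboxylate transporter gene Slc16a7 by -0.64. Of 46 testis protease and inhibitor genes, 9 were higher and 8 lower (19.6% and 17.4%). Prss42, a testis serine protease, had 12.30 and 11.96 in XII-I against 10.41 and 10.20 in VII, a difference of 1.83 (SE 0.34, adjusted p = 0.015), whereas Adam25 and Adam24 differed by -1.66 and -1.60. The bars for each list are drawn against the shares of all genes.

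**Figure D2:**
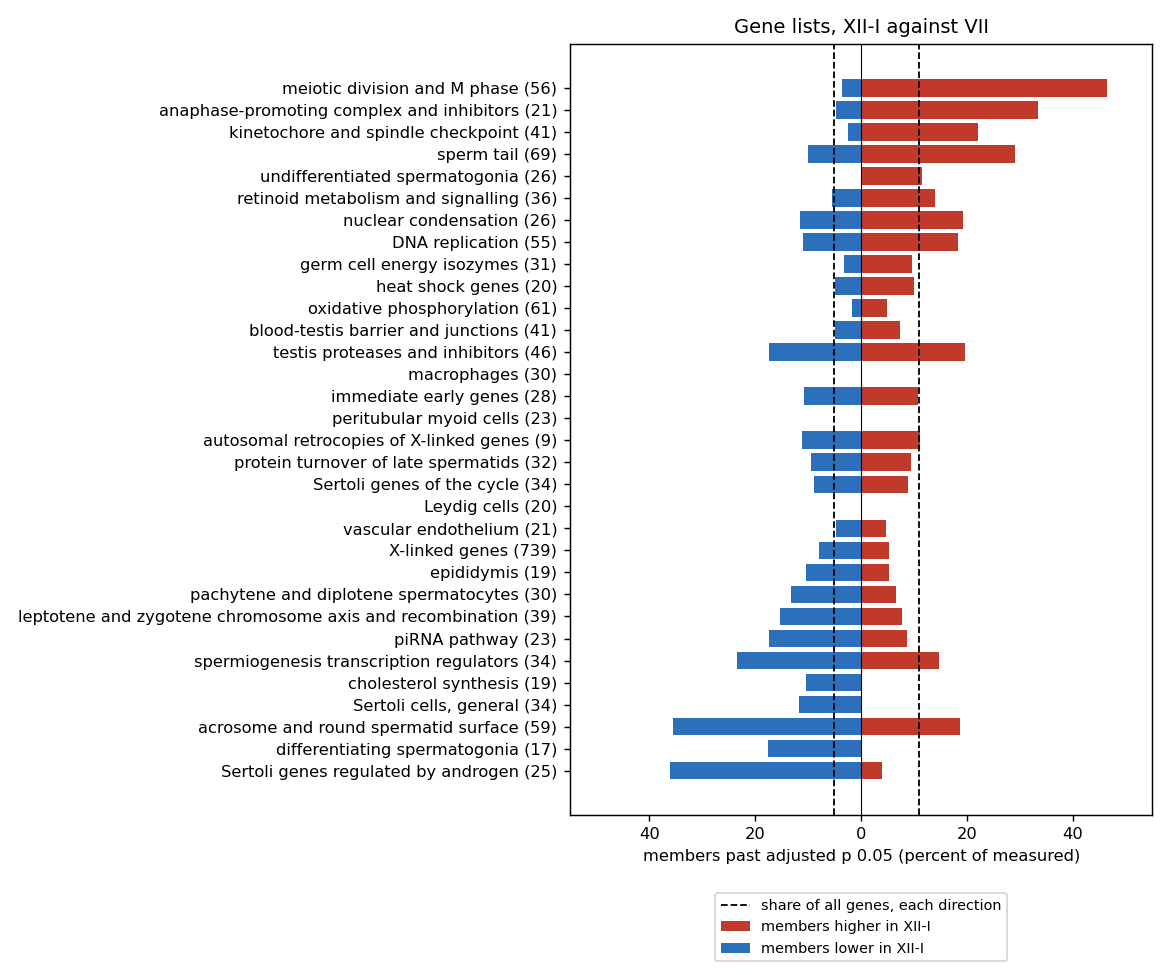
Percent of each list's measured members (number in brackets) past adjusted p 0.05 in limma, with members higher in XII-I to the right and lower to the left; dashed lines mark the shares of all genes, 10.9% higher and 5.14% lower. The M phase bar reaches 46.4% on the right, and the androgen regulated Sertoli and acrosome bars reach 36% and 35.6% on the left; the blood and Y-linked lists are not drawn.

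Sertoli genes must be read with the 2 VII arrays side by side. VII sample 2 exceeded VII sample 1 in 30 of the 34 general Sertoli genes (median 0.414), 26 of 30 macrophage genes (median 0.694), 20 of 23 peritubular myoid genes (median 0.259), 19 of 20 Leydig genes (median 0.228) and 18 of 21 endothelial genes (median 0.187), while the median over all genes was -0.019. In these bulk samples, fewer cells of a type and less RNA per cell cannot be told apart. Of the 25 measured genes that androgen is known to regulate in Sertoli cells, 1 was higher and 9 were lower (4.0% and 36%). Of all genes, 10.9% were higher and 5.14% lower. The median of the list was -0.313. It was -0.135 against VII sample 1 alone and -0.538 against VII sample 2 alone. Summed intensity of the list was 31435 and 29581 in XII-I and 35683 and 43398 in VII. Eppin, a protease inhibitor of the sperm surface, had 10.66 and 10.53 in XII-I against 11.74 and 11.96 in VII, a difference of -1.26 (SE 0.24, adjusted p = 0.015). Serpina5, the protein C inhibitor, had 10.64 and 10.42 in XII-I against 11.48 and 12.09 in VII, a difference of -1.25 (SE 0.24). Gpd1, glycerol phosphate dehydrogenase, had 9.10 and 9.55 in XII-I against 10.51 and 10.55 in VII, a difference of -1.21 (SE 0.28). Corin, a membrane protease, had 9.68 and 9.59 in XII-I against 10.92 and 10.51 in VII, a difference of -1.08 (SE 0.29, adjusted p = 0.035). VII sample 2 was the lower of the VII arrays for Corin and nearly level with sample 1 for Gpd1, and for all 4 genes both XII-I arrays lay below both VII arrays. At 0.1, 0 were higher and 8 lower without VII sample 2, and 0 higher and 6 lower without XII-I sample 1.

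Counts of the general Sertoli list changed with the VII array used. Of 34 genes, 0 were higher and 4 lower (11.8%, against 5.14% of all genes), namely Aqp8, Rhox8, Ctsl and Sox9. With VII sample 1 left out, 13 were lower, whereas at 0.1 without VII sample 2 there were 5 higher and 1 lower. Aqp8, a water channel, had 8.15 and 9.42 in XII-I against 10.76 and 10.90 in VII, a difference of -2.04 (SE 0.55, adjusted p = 0.037). Rhox8, a homeobox gene that androgen also regulates, had 8.95 and 9.04 in XII-I against 9.57 and 9.82 in VII, a difference of -0.70 (SE 0.14). Sox9, the transcription factor that defines Sertoli cells, had 9.64 and 9.64 in XII-I against 9.95 and 10.29 in VII, a difference of -0.48 (SE 0.13, adjusted p = 0.042). The other defining genes Wt1, Amh and Cldn11 did not pass, at -0.26, -0.18 and -0.39 with adjusted p from 0.16 to 0.31. Cldn11, the claudin of the Sertoli barrier, had 11.11 and 11.07 in XII-I and 11.12 and 11.85 in VII, so that its difference lay on VII sample 2. Of 34 further Sertoli genes of the cycle, 3 were higher and 3 lower (8.82% each, against 10.9% and 5.14% of all genes). These counts also changed with the VII array used, at 2 higher and 8 lower without VII sample 1, and at 0.1 at 8 higher and 2 lower without VII sample 2. Pdgfa, a growth factor gene, averaged 10.75 ± 0.36 in XII-I and 9.35 ± 0.09 in VII (SD, n = 2 each), a difference of 1.40 (SE 0.29) in limma, and Fgf2, another, differed by 0.75 (SE 0.12). Of 41 barrier and junction genes, 3 were higher and 2 lower (7.32% and 4.88%), under the 10.9% and 5.14% of all genes. Ocln, the tight junction protein occludin, had 8.66 and 8.26 in XII-I against 7.28 and 7.81 in VII, a difference of 0.92 (SE 0.26, adjusted p = 0.044). On leaving out VII sample 1, 0 barrier genes were higher and 5 lower, whereas at 0.1 without VII sample 2, 6 were higher and 0 lower.

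No Leydig, peritubular myoid or macrophage gene passed in limma (20, 23 and 30 measured). Summed macrophage intensity was 13070 and 12444 in XII-I and 12015 and 18418 in VII, and without VII sample 1, 15 macrophage genes were lower at 0.05. Cd68, a macrophage marker, had 8.17 and 8.12 in XII-I and 7.96 and 9.20 in VII (adjusted p = 0.39), and Cyp11a1, a steroidogenic enzyme of Leydig cells, had 11.29 and 11.34 in XII-I and 11.18 and 12.30 in VII (adjusted p = 0.46). In both, 1 VII array stood alone. Of 21 endothelial genes, 1 was higher and 1 lower (4.76% each, against 10.9% and 5.14% of all genes). Sox17, a transcription factor of arteries that germ cells also express, was higher by 1.61 (SE 0.25). Cdh5, the endothelial cadherin, was lower, at -0.69 (SE 0.17). The defining epididymal genes Lcn5, Lcn8, Gpx5 and Adam7 had levels from 5.54 to 6.95 in XII-I and 5.49 to 6.83 in VII, and none passed. Of 19 epididymal genes, 1 was higher and 2 lower (5.26% and 10.5%). Rnase10 was higher by 1.92, and Defb30 and Spink8 lower, at -0.91 and -0.71. Among 4 measured blood genes, Alas2, the haem synthesis enzyme of red cell precursors, had 9.42 and 10.27 in XII-I against 7.89 and 8.23 in VII, a difference of 1.78 (SE 0.37, adjusted p = 0.017), while Slc4a1, the red cell anion exchanger, differed by 0.09 (adjusted p = 0.77). Immediate early genes gave 3 higher and 3 lower of 28 (21.4% called, against 16.1% of all genes), heat shock genes 2 higher and 1 lower of 20 (15% called), and oxidative phosphorylation genes 3 higher and 1 lower of 61 (6.56% called). The immediate early genes Egr3, Klf4 and Dusp1 were lower, at -1.16, -1.15 and -1.04, and Arc was higher by 1.04. The chaperone gene Hspa5 was higher by 0.83. The part of these lists in the other results was not tested. The plot of marker levels shows VII sample 2 apart from the other 3 arrays for some markers, picked after their values were seen: Cldn11, Cyp11a1, Hsd3b1, Kdr, Cd68 and C1qa. No myoid or epididymal marker is among these. For Sox9 both VII samples, at 9.95 and 10.29, lay above the XII-I samples, at 9.64 and 9.64.

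**Figure D3:**
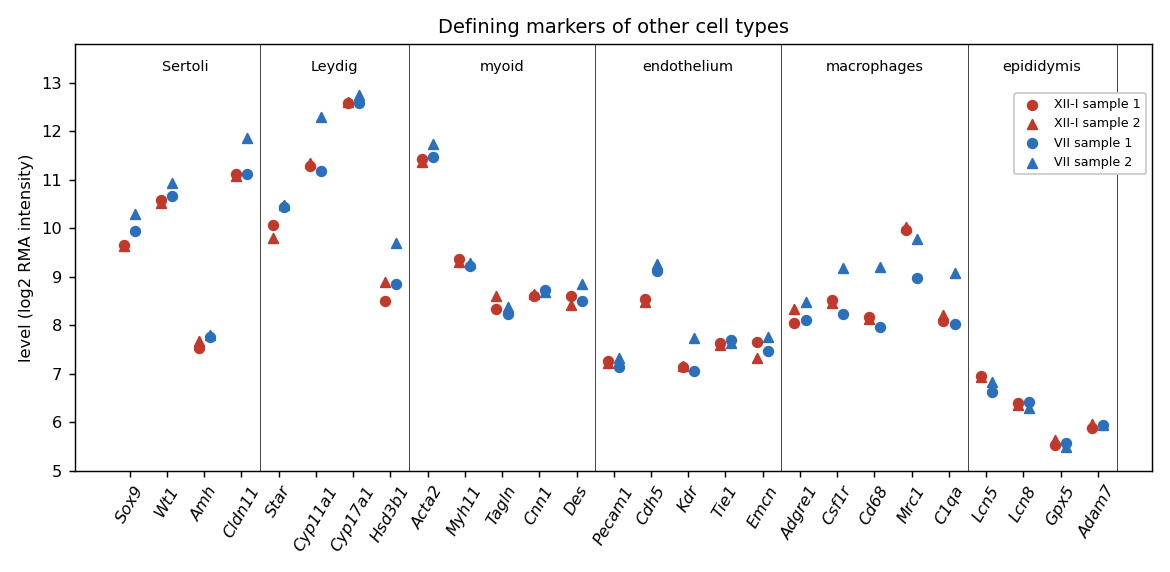
Level (log2 RMA intensity) of the defining markers of 6 other cell types on each array, XII-I in red left of VII in blue, with circles for sample 1 and triangles for sample 2. VII sample 2 stands highest for Cyp11a1 (12.30) and Cd68 (9.20), where VII sample 1 (11.18 and 7.96) lies near the XII-I arrays; the 4 epididymal markers lie at 5.49 to 6.95 on all 4 arrays.

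By chromosome, 39 of 739 X-linked genes were higher and 59 lower (5.28% and 7.98%, against 10.9% and 5.14% of all genes), with a median of -0.021. Spermatids carry an X or a Y, and the X and Y are silenced in pachytene. The 4 largest X-linked differences were lower in XII-I: 4921511C20Rik at -3.31, 4930513O06Rik at -3.09, Cldn34c4 at -2.78 and Samt3 at -2.72. Cldn34c4 had 7.61 and 8.44 in XII-I against 10.96 and 10.65 in VII, and Samt3 had 6.21 and 5.89 in XII-I against 8.89 and 8.65 in VII. The X-linked median depended on the VII array. It was -0.067 without VII sample 1 and 0.021 without VII sample 2, against 0.027 and 0.048 over all genes. VII sample 2 exceeded VII sample 1 in 443 of the 739 X-linked genes. Of 9 Y-linked genes, 2 were higher: Srsy, a multicopy gene, with 12.17 and 12.59 in XII-I against 11.33 and 10.83 in VII, a difference of 1.30 (SE 0.25), and Usp9y, a deubiquitinase gene, with 8.49 and 8.26 in XII-I against 7.40 and 7.18 in VII, a difference of 1.09 (SE 0.14). Among 9 autosomal retrocopies of X-linked genes, G6pd2 was lower, at -1.08 and Cstf2t higher by 0.48. Of 19 cholesterol synthesis genes, Cyp51, a demethylase of the pathway that is strongly expressed in spermatids, had 9.14 and 8.55 in XII-I against 10.84 and 10.63 in VII, a difference of -1.89 (SE 0.39, adjusted p = 0.017), and Fdps was lower, at -0.55.

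For the called genes, the group with the highest mean among the 4 outside the comparison was found, each mean being of 2 arrays that can differ. Of the 2182 genes higher in XII-I, 59.3% had their highest mean among the other groups in II-IV and 38.0% in VIII-IX, against 24.1% and 22.3% of all genes. Of the 1025 lower in XII-I, 60.3% had their highest mean among those 4 groups in IV-VI and 34.3% in IX-XI, against 19.8% and 33.8% of all genes. Over all 6 groups, 497 of the 1025 had their highest mean in VII (48.5%), 283 in IV-VI (27.6%) and 212 in IX-XI (20.7%). By list, among the 4 groups outside the comparison, 17 of the 26 higher M phase genes had their highest mean in II-IV and 9 in VIII-IX, all 7 higher genes of the anaphase-promoting complex list in II-IV, and 20 of the 21 lower acrosomal genes in IV-VI. Of the 20 higher tail genes, 12 had it in VIII-IX and 8 in II-IV. Dnaic2 averaged 10.95 in II-IV, from 10.36 and 11.55 on its arrays. Nutm2 averaged 8.35 in the same group, from 7.84 and 8.87, against 6.52 in VIII-IX. In both genes II-IV sample 2 lay near the XII-I levels given above, and sample 1 lay lower. In the plot of lists over the cycle, the M phase median was highest in the XII-I samples, at 0.436 and 0.189, and stood at -0.097 and -0.229 in the VII samples, while II-IV sample 2, at 0.159, came close to XII-I sample 2.

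**Figure D4:**
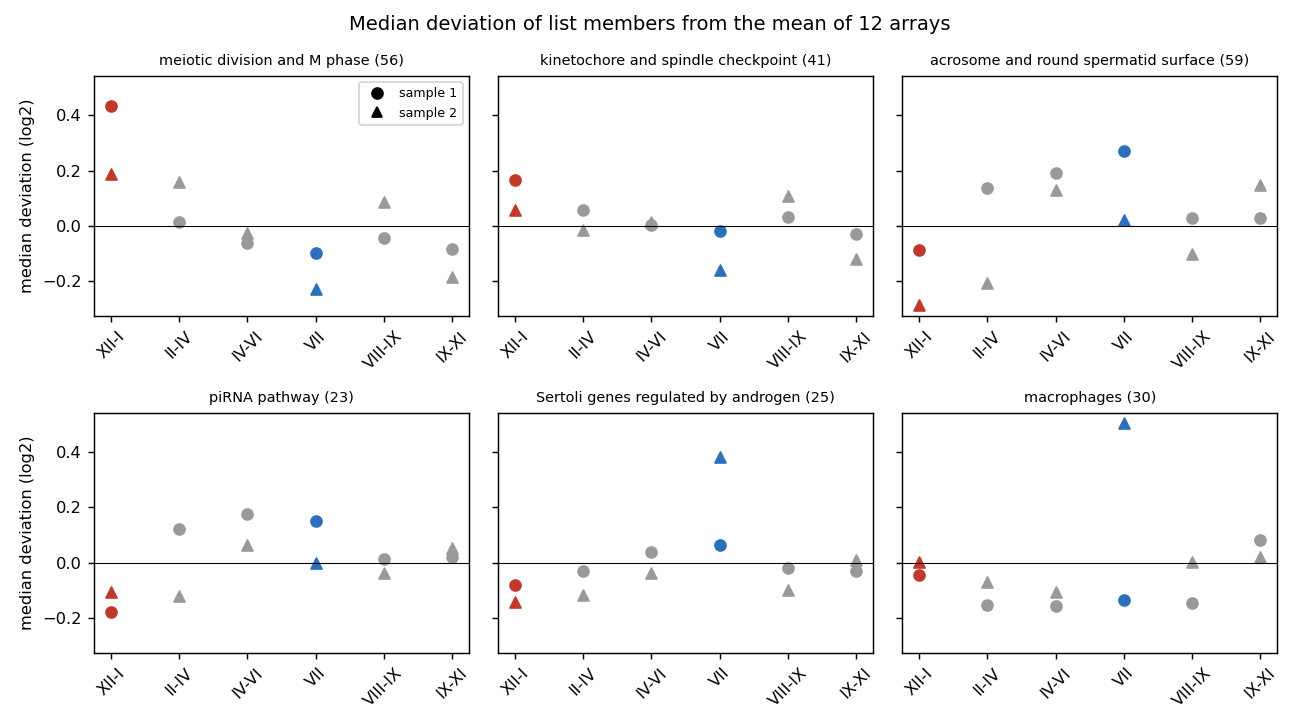
Median over list members of the log2 deviation from each gene's mean of 12 arrays, by stage group in the order of the cycle, with circles for sample 1 and triangles for sample 2; XII-I is red, VII blue and the other groups grey. M phase genes stand at 0.436 and 0.189 in XII-I against -0.097 and -0.229 in VII, and in the macrophage panel VII sample 2 stands apart.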

How the data were processed

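RNA of 12 testis samples was read on Affymetrix Mouse Gene 1.0 ST arrays; per the labels' protocols, 100 ng was amplified (Ovation V2) and 3.75 ug of cDNA labelled (Encore). The intensity values deposited by the authors were made with RMA, per the submitters' processing notes, and its version and the genome build are not given in the sources used here. They ran from 24.97 to 21760 on a linear scale, with array medians of 296.9 to 309.1, and 0 sample columns were left out. The deposited values were transformed to log2 with nothing added. RMA makes the arrays' distributions alike, so a change in total RNA cannot be seen.

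Of 28853 probe sets, 21797 had 1 symbol, 1613 several and 5443 none listed; the brightest single-symbol set was kept per gene, including 999 genes with more than 1, leaving 19946. Through Entrez IDs, 0 symbols changed against RefSeq of GRCm38.p6 and 99 IDs were not in its table. A model of 6 group means was fitted to 12 arrays with limma 3.58.1 in R 4.3.3 (6 residual degrees of freedom), with Benjamini-Hochberg adjustment over all genes and a threshold of 0.05. The number of arrays limits the precision. The fit was tested on simulated data with independent noise on each array, which cannot show how calls depend on single real arrays. Lists (32, with 1097 entries, 64 without a measured gene of that name and not analysed here) and the comparison itself were chosen with earlier results of these data known.

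Named genes were the 15 largest each way among called genes whose groups do not overlap, passing over symbols of predicted genes (RIKEN clones included), chemosensory receptors and small RNAs, the up to 4 largest called members per list, the defining markers, the promoters shown, and the 8 genes that differed most between the samples of a group. Alternatives changed normalization, filter, probe set, arrays, weights, variance prior and a block for sample number. Whether sample numbers pair the samples was checked by correlating sample 2 minus sample 1 between groups: r was -0.074 for XII-I with VII and -0.354 to 0.541 over all pairs of groups, so they were not taken as pairs.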

Additional observations from a re-analysis of the deposited data

How the results depend on the processing

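The 3207 genes and the 743 that were also at least 2-fold apart were recomputed under each alternative. Fitting the 4 arrays alone, with 2 residual degrees of freedom, gave 1424 and 593 genes. Leaving out 1 array gave 0 to 3680 genes, and 0 to 834 at least 2-fold apart. The counts were 0 without VII sample 2 and without XII-I sample 1, with 4988 and 4912 genes at an unadjusted p under 0.05, 1960 without VII sample 1 and 2452 without XII-I sample 2; the cause was not tested. Array weights gave 2280, median centring 3212, repeated quantile normalization 3378, the mean of all probe sets 3185, an intensity trend 3246 and leaving out the dimmest 30% 3289. Both arrays of a group received the same weight, so the weights could not set VII sample 2 or XII-I sample 1 apart. The share of calls higher in XII-I was 68.0%, 79.6% without XII-I sample 2 and 61.3% to 70.4% under the settings with all samples. The sample numbers were not taken as pairs, though the correlations cannot settle if samples of the same number share an animal or a batch. With a replicate block the counts were 3537 and 763. At an adjusted p under 0.1, added after the data were seen, 4783 genes passed with 12 arrays. No named gene past the threshold reversed its direction under the alternatives at 0.05. Where the groups do not overlap, as the choice of the largest genes required, leaving out 1 array cannot reverse the direction. For such genes the lack of reversals in those fits was fixed in advance. List counts were compared by size, which cannot show a reversal. In some lists, such as the acrosomal, retinoid and barrier lists, the direction with more calls changed without VII sample 1.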

Other observations

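The samples within a group differed in genes that the comparison does not call. On the VII arrays, Timp1, an inhibitor of matrix proteases, had 11.27 on sample 2 and 7.60 on sample 1, with 7.79 and 7.70 on the XII-I arrays. Gpnmb, a glycoprotein of macrophages and other cells, had 10.43 on VII sample 2 and 6.97 on sample 1, and Lrg1, a secreted glycoprotein, 10.98 and 7.84 on the same arrays. Serpina3n, Klk1b1, Klk1b27, Bpifa2 and Wfdc17 were also higher on VII sample 2, and none of the 8 passed the test. Probes of the kallikrein genes can bind transcripts of close relatives. At least 2-fold apart were 189 genes between the VII arrays and 264 between the XII-I arrays.

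Between the XII-I arrays, the 8 largest differences were all lower on sample 2. Cst13, a cystatin, had 10.44 on sample 1 and 7.00 on sample 2, with 10.60 and 10.41 on the VII arrays. Fhdc1 had 10.78 on XII-I sample 1 and 7.93 on sample 2, against 10.34 and 10.08 on the VII arrays. In these genes XII-I sample 1 lay near the VII arrays and XII-I sample 2 stood alone. Fam71b, Trim80, Spata31d1c, Prss52, Adam6b and Faiml complete the set, and none of the 8 passed.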
